A study of Mus musculus with 16 samples.

Results

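The glutathione peroxidase family was described in RNA sequencing of mouse spermatozoa. Its members were taken by gene symbol alone, Gpx1 to Gpx8, and all 8 were among the 24062 genes of the count table. The 16 libraries came from male mice that entered the diets at 3 weeks of age and stayed on them for 9 weeks: 8 were fed a high-fat diet (HFD), a modified D12492 rich in calories, and 8 its control diet (CD). Motile sperm were isolated, RNA was extracted, and 2 ng of it was amplified to cDNA before sequencing. The labels give no strain, no genetic change and no molecular identifier, so amplified copies count as reads. The series asks what parental obesity does to the early embryo, and the comparison here is of sperm transcripts between the diets of the males.

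Glutathione peroxidases reduce hydrogen peroxide and lipid hydroperoxides, in the classical members with electrons from glutathione. The active site holds selenocysteine, which is read from an in-frame TGA codon, or cysteine in its place. In the male tract, Gpx4 is a structural and enzymatic protein of the sperm midpiece, and Gpx3 and Gpx5 are secreted by the epididymis, the duct in which sperm mature. Gpx1 is the widespread cytosolic enzyme, Gpx2 is known from the gut, Gpx6 from the olfactory epithelium, and Gpx7 and Gpx8 sit in the endoplasmic reticulum and take part in the folding of secreted proteins.

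The coding sequence around the active-site codon shows how the members divide, and is printed here for all 8 because that codon sets the class of each enzyme. Each line holds 51 bases of the GENCODE M21 transcript, 5′ to 3′, with the active-site codon in capitals and 24 bases on each side of it, and the windows of Gpx3, Gpx5 and Gpx6 run on into exon 3.
Gpx1: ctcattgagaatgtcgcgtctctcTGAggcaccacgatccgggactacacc
Gpx2: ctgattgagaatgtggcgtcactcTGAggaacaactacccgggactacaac
Gpx3: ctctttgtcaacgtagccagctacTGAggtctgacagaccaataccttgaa
Gpx4: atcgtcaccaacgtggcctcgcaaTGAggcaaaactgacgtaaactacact
Gpx5: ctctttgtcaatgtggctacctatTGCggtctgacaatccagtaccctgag
Gpx6: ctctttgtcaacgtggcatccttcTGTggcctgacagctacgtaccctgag
Gpx7: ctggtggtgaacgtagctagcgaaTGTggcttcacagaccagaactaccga
Gpx8: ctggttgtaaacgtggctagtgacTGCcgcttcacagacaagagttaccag
Gpx1, Gpx2, Gpx3 and Gpx4 carry TGA, the selenocysteine codon, at this place. Gpx5 and Gpx8 carry TGC, and Gpx6 and Gpx7 carry TGT, both codons for cysteine. Between Gpx1 and Gpx2, 43 of the 51 bases were identical, and between Gpx3 and Gpx5 it was 40. Gpx5 and Gpx6 shared 39 bases, as did Gpx7 and Gpx8, while Gpx4 shared between 22 and 29 with the other members.

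In the GRCm38 assembly, which mm10 denotes, GENCODE M21 gives the following places. Gpx1 lies at chr9:108338903-108340343 on the plus strand, with its active-site codon in exon 1 at chr9:108339451-108339453. Gpx3 lies at chr11:54902453-54910377 on the plus strand, and its codon is in exon 2 at chr11:54907256-54907258. Gpx4 lies at chr10:80047166-80056439 on the plus strand, with the codon in exon 3 at chr10:80054737-80054739. The epididymal Gpx5 and its paralog Gpx6 are next to each other on chromosome 13, Gpx5 at chr13:21286429-21292731 on the minus strand and Gpx6 at chr13:21312125-21319624 on the plus strand, 19393 bases apart. The codon of each of this pair is in exon 2, at chr13:21291336-21291338 in Gpx5 and chr13:21313777-21313779 in Gpx6. Gpx8 is on the same chromosome at chr13:113042753-113046410 on the minus strand, with the codon in exon 2 at chr13:113045661-113045663. Gpx7 lies at chr4:108400390-108406961 on the minus strand with the codon in exon 2 at chr4:108403430-108403432, and Gpx2 at chr12:76792333-76795554 on the minus strand with the codon at chr12:76795256-76795258. Gpx2 overlaps Fntb and Gpx8 overlaps Cdc20b, each on the other strand. Whether the counting used strand is not given in the sources used here, and without strand such a pair cannot be told apart.

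The libraries held 1882555 to 7783981 gene counts each, and levels are given as CPM, counts scaled to a common library size. A count of 0 allows up to 3 counts, which came to 0.397 to 1.79 CPM by library. Sperm identity was checked with 25 late spermatid and sperm genes, among them the protamines Prm1 and Prm2, and 24 of the 25 had counts in all 16 libraries. Transcripts of the epididymal epithelium were more abundant: 12 of its genes, such as Crisp1 and Spink8, summed to 38271 to 86584 CPM in 14 of the libraries, where the sperm genes summed to 2379 to 13209 CPM. HFD 4 and HFD 8 stood apart from the other 14, with sperm sums of 23531 and 55826 CPM and epididymal sums of 14930 and 8913 CPM. These libraries also had the lowest shares of reads assigned to genes, 8.02% and 9.16%, against 10.3% or more elsewhere. In such bulk samples, fewer cells of a type and less RNA per cell cannot be told apart. Because both libraries are from HFD males, member values are given below with and without them.

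Levels were compared between members as CPM per kilobase of exon, averaged over the 16 libraries. Gpx3, the secreted peroxidase of plasma and epididymis, had the highest mean level at 2819 ± 1293 (SD, n = 16). Gpx5, the epididymal secreted form, followed at 881 ± 1420, with a median of 148. Its spread was wider than its mean, and it was lower than Gpx3 in 13 of the 16 libraries.

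The other members had far lower mean levels than these 2 genes. Gpx8 had a mean level of 67.5 ± 31.4 CPM per kilobase, Gpx1 48.2 ± 14.2 and Gpx4 41.1 ± 28.9. Gpx6 followed at 23.1 ± 29.3, Gpx7 at 2.39 ± 1.53 and Gpx2 at 0.0849 ± 0.183. Gpx8 was above Gpx1 in 13 of 16 libraries, Gpx1 above Gpx4 in 14 and Gpx4 above Gpx6 in 14, yet the means of each of these pairs differed by less than the larger SD of the pair. Gpx5 was above Gpx8 in 9 of 16 libraries, with means that also differed by less than its SD. These SDs measure the spread between libraries, not that of the difference between 2 members within a library. Gpx6 was above Gpx7, and Gpx7 above Gpx2, in all 16. Without scaling by length, mean levels were 70.8 CPM for Gpx8, 69.5 for Gpx1 and 70.9 for Gpx4. The order of Gpx8, Gpx1 and Gpx4 thus rested on their exon lengths in GENCODE M21, 1048, 1441 and 1724 bases. The lengths used here join the exons of all transcripts of a gene. For Gpx1 and Gpx2, at 1441 and 3222 bases, they cover the whole gene, although the coding transcript of each has 2 exons. Their levels and shares per kilobase are thus lower than spliced lengths would give, and Gpx1 may stand too low in that order. The annotation behind the counts is not given either, so the order is uncertain.

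The make-up of the family varied from library to library. Gpx3 made up a median of 83.9% of the summed level per kilobase of the 8 members, from 32.4% in HFD 6 to 97.2% in CD 8. Gpx5 took from 0.0191% in CD 3 to 64.3% in HFD 6, with a median of 3.71%. It exceeded Gpx3 per kilobase in 3 libraries, with ratios of 1.88 in HFD 5, 1.99 in HFD 6 and 1.65 in HFD 8. In HFD 4, where the family summed to its lowest level of 1020 CPM per kilobase, Gpx4 and Gpx6 reached their highest shares, 11.1% and 11.2%.

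**Figure D1:**
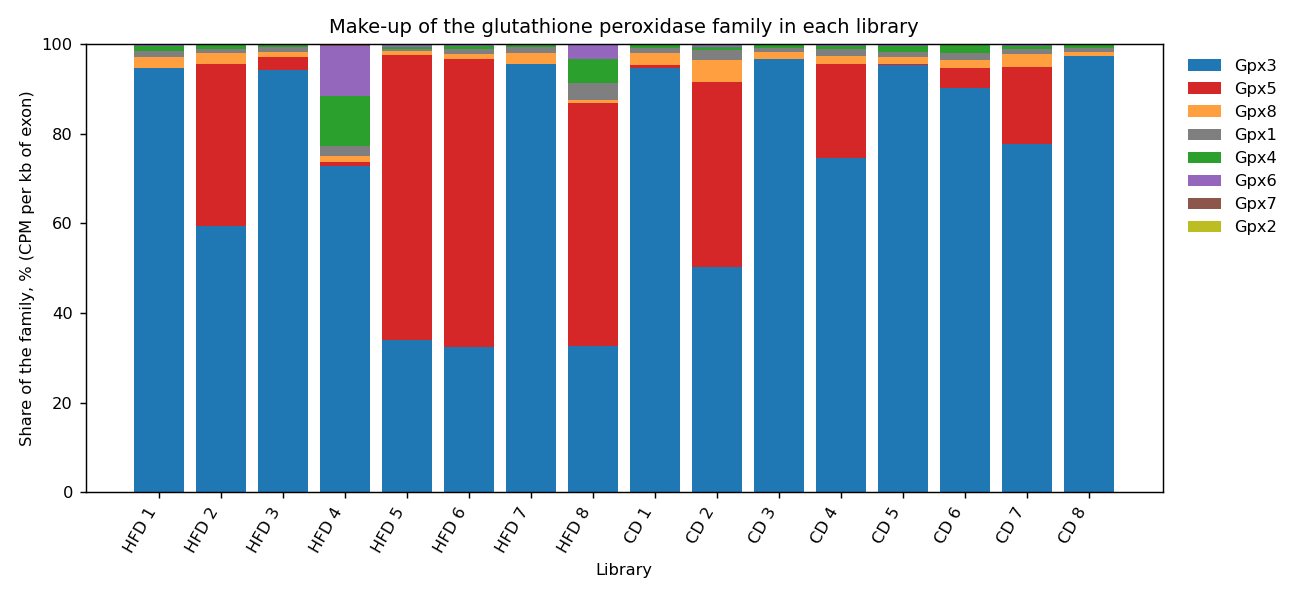
Stacked bars give each member's share, in percent, of the summed level of the family (CPM per kilobase of exon) in each of the 16 libraries. Gpx3 fills most of nearly every bar, Gpx5 passes it in HFD 5, HFD 6 and HFD 8, and Gpx4 and Gpx6 are most visible in HFD 4.

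Diets were compared gene by gene with edgeR's quasi-likelihood test, adjusted by Benjamini-Hochberg over all 13149 genes tested, and fold changes are HFD over CD. No member passed the adjusted threshold of 0.05, nor did any gene of the table (0% of genes called). Gpx6 was the 1 member of the 7 tested with an unadjusted p below 0.05. Among all genes tested, 11.3% were below that value, 1338 of them higher and 144 lower in HFD, so 1 of 7 members is near the background. That number of genes, 1482 in all, was 516 without HFD 4, 689 without HFD 8 and 292 without both. The CPM ranges of the diets overlapped for every member, and 1 gene of the table (0.00761%) had ranges that did not overlap. The median log2 fold change over all genes was -0.0042.

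**Figure D2:**
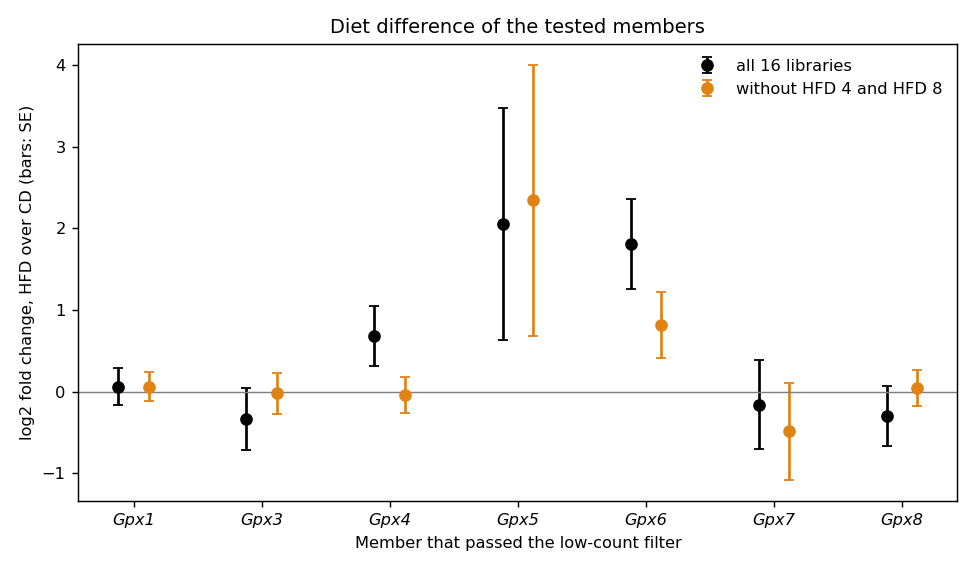
Points give the log2 fold change of HFD over CD for the 7 members that passed the low-count filter, with bars for the standard error, for all 16 libraries and with HFD 4 and HFD 8 left out. Gpx6 is at 1.81 with all libraries and 0.82 without that pair, and Gpx4 moves from 0.68 to -0.04.

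Gpx3, the most abundant member, differed between the diets by less than the spread of the libraries. In HFD it ran from 1226 CPM in HFD 8 over a median of 4574 to 8804 in HFD 3, and in CD from 2627 in CD 2 over 5132 to 9176 in CD 8. The HFD range spanned nearly all of the CD range, and the lowest HFD libraries, HFD 8 and HFD 4 with 1345 CPM, lay below every CD library. The means were 4519 CPM ± 2618 (SD, n = 8) and 5703.5 ± 2029, and the log2 fold change was -0.34 ± 0.38 (SE) with edgeR's adjusted p at 0.770. Leaving out that pair put the HFD mean at 5597 CPM ± 2005 (n = 6) and the log2 fold change at -0.02. In that pair the epididymal marker sum was also low, as given above, and its part in the Gpx3 values was not tested.

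Gpx5 had the widest spread of the family. In HFD it ran from 7.87 CPM in HFD 1 (41 counts) over a median of 1063 to 7826 in HFD 5 (20209 counts). In CD it ran from 1.42 CPM in CD 3 (5 counts) over 133 to 1998.5 in CD 2. Both diets thus held libraries with almost no Gpx5 and libraries with abundant Gpx5: 5 HFD and 4 CD libraries were above 100 CPM. HFD 5, HFD 6 (6414 CPM) and HFD 2 (2608 CPM) lay above every CD library, and no HFD library lay below the lowest CD library.

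The diet means of Gpx5 were 2376 CPM ± 3108 (SD, n = 8) in HFD and 573 ± 767 in CD, and the log2 fold change was 2.05 ± 1.42 (SE), edgeR adjusted p = 0.621. The standard error covers a large part of this difference. Without HFD 4 and HFD 8 the log2 fold change was 2.35 ± 1.66. With the late spermatid marker sum as a covariate it was 3.62 ± 2.12, edgeR adjusted p = 0.999. With the caput marker sum it was 2.37 ± 0.94, adjusted p = 0.253. Its standard deviation over the 16 libraries was 3.97 on the log2 scale, against 0.43 for Gpx1 and at most 1.24 for the other tested members.

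Gpx5 is known from the caput, the head of the epididymis. The 16 genes of the caput and initial segment list summed to 459 to 3606 CPM in HFD and 750 to 3359 CPM in CD. The exact permutation test of the sum, two-sided, gave p = 0.791 (0.833 after adjustment over 10 lists). Gene by gene, 10 were tested, 6 with a higher and 4 with a lower fitted level in HFD, with a median log2 fold change of 0.88. The unadjusted edgeR p was below 0.05 for 3 of these (Spag11b, Cst8 and Defb20), against 11.3% of all genes, and 0 passed the adjusted threshold. Within the list, Lcn9 was at 0 in 10 libraries and Lcn10 in 11, while the 2 most abundant, Spag11a and Defb21, had counts in all 16. The genes whose profile over the 16 libraries lay nearest to that of Gpx5, by root-mean-square distance of centred log2 CPM, were Clpsl2 (1.20), Slc38a5 (1.52) and Gm5531 (1.79). These distances are smaller than the spread of Gpx5 itself but larger than those found for any other member's neighbours. Clpsl2, a colipase-like gene, stood at 226 CPM in HFD 5 and 210 in HFD 6, where Gpx5 was highest, and at 0.567 CPM in CD 3, where it was lowest.

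The 16 genes of this list were highest in 7 different libraries. HFD 5 held the highest value of 3 of them (Cst11, Defb15 and Spag11b), HFD 6 of 2 (Rnase10 and Ros1), and HFD 8 of 4 (Lcn10, Cst8, Defb18 and Defb20). CD 6 held the highest value of another 4 (Lcn8, Lcn9, Cst12 and Adam28), and CD 1, CD 2 and CD 4 of 1 each. Cst8 was 376 CPM in HFD 8 and 186 in HFD 4, against at most 52.7 in the other 14 libraries. Defb15, a defensin gene, was 246 CPM in HFD 5, 154 in HFD 6, 165 in CD 4 and 83.2 in CD 2, where Gpx5 was high, and 3.97 CPM in CD 3, where Gpx5 was lowest. The receptor gene Ros1 was 407 CPM in HFD 6, 398 in CD 2 and 61.8 in CD 3. Both were low in HFD 8, with 4.88 CPM of Defb15 and 10.8 of Ros1, although Gpx5 was 1871 CPM there. Spag11b, a defensin-like gene, was 666 CPM in HFD 5 and 581 in HFD 8 but 11.5 in CD 2. The lipocalin Lcn8 was 43.8 and 46.5 CPM in HFD 5 and HFD 6 and 107 CPM in CD 6, where Gpx5 was 242 CPM. The genes of the list given with values here, beyond the 2 most abundant, were picked after their values were seen.

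**Figure D3:**
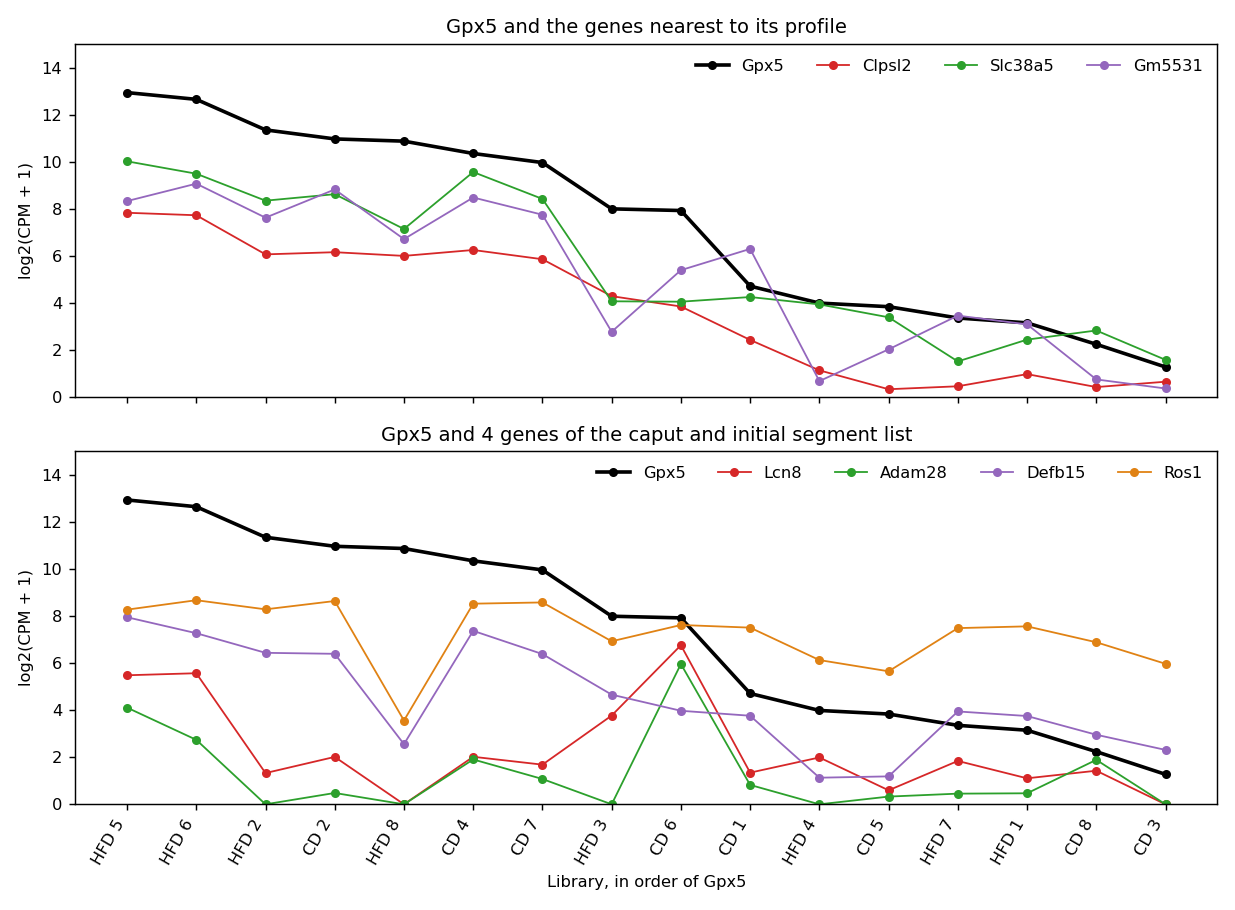
Lines give log2(CPM + 1) in each library, with libraries ordered by Gpx5, for Gpx5 with its 3 nearest genes (upper panel) and with 4 genes of the caput and initial segment list that differ in where they are highest (lower panel). Clpsl2, Slc38a5 and Gm5531 are high where Gpx5 is high. Defb15 is highest in HFD 5 and Ros1 in HFD 6, and both are low in HFD 8, while Lcn8 and Adam28 are highest in CD 6, where Gpx5 is at 242 CPM.

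Gpx6, next to Gpx5 on the chromosome, had its highest values in HFD libraries. In HFD it ran from 6.28 CPM in HFD 7 over a median of 27.4 to 156 in HFD 4, and in CD from 8.45 in CD 8 over 12.7 to 25.0 in CD 5. HFD 4, HFD 8 (91.0 CPM), HFD 5 (59.6 CPM) and HFD 6 (37.5 CPM) lay above every CD library, and the other 4 HFD libraries lay at or below 17.4 CPM. The counts behind these values are small, from 17 in HFD 7 to 262 in HFD 4.

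The means of Gpx6 were 49.3 CPM ± 51.9 (SD, n = 8) in HFD and 13.9 ± 5.63 in CD. The log2 fold change was 1.81 ± 0.55 (SE), with an edgeR adjusted p of 0.434. The unadjusted p was 0.00386. In DESeq2 the change was 1.88 ± 0.53 (adjusted p = 0.159), and in limma-voom, which weighted libraries by quality, 0.61. With HFD 4 and HFD 8 left out, the mean of the remaining HFD libraries was 24.5 CPM ± 20.2 (n = 6). The edgeR log2 fold change was then 0.82 ± 0.40, with an adjusted p of 0.9997. With the late spermatid marker sum as a covariate it was 0.89 ± 0.48.

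Late spermatid transcripts moved with Gpx6 in that pair of libraries. The 25 genes of the list, led by Smcp and Odf1, which encode midpiece and outer dense fibre proteins, summed to 3045 to 55826 CPM in HFD and 2379 to 13209 CPM in CD. All 25 had a higher fitted level in HFD, against 49.6% of all genes tested. Of the 25, 14 had an unadjusted edgeR p below 0.05, against 11.3% of all genes, and 0 passed the adjusted threshold. The exact permutation p of the sum was 0.318. Without HFD 4 and HFD 8 the log2 difference of the sum went from 0.63 to -0.04. HFD 4 and HFD 8 held 11.1 and 6.49 times the median Gpx6 of the other 14 libraries. Their order was not that of the sperm sums, since HFD 4 had more Gpx6 and HFD 8 the larger sperm sum. Markers of the olfactory epithelium, where Gpx6 is known, summed to 16.2 to 41.2 CPM over all libraries, with Omp at a mean of 3.11 CPM and Obp1a at 0 in every library. The nearest profiles were those of Cep57 (0.61), 4930549G23Rik (0.63) and Ccdc183 (0.63), and Cep57, a centrosomal gene, was also highest in HFD 4 at 321 CPM and HFD 8 at 162 CPM.

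Gpx4, the phospholipid hydroperoxidase of the sperm midpiece, was split by the same libraries. In HFD it ran from 41.4 CPM in HFD 3 over a median of 57.6 to 195 in HFD 4, with HFD 8 at 190 CPM, and in CD from 32.4 in CD 1 over 48.4 to 88.1 in CD 6. HFD 4 and HFD 8 lay above every other library, at 3.85 and 3.75 times the median of the other 14, and the remaining 6 HFD libraries lay inside the CD range.

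The means of Gpx4 were 87.4 CPM ± 65.4 (SD, n = 8) in HFD and 54.4 ± 20.1 in CD, and the log2 fold change was 0.68 ± 0.36 (SE), edgeR adjusted p = 0.488. Without HFD 4 and HFD 8 the HFD mean was 52.4 CPM ± 9.36 (n = 6). The log2 fold change was then -0.04 ± 0.22 (SE), a turn of sign within the standard error. With the late spermatid marker sum as a covariate it was 0.15, and limma-voom gave 0.18. Its nearest profiles were Egln2, an oxygen-sensing prolyl hydroxylase (0.23), Amz2, a metalloprotease (0.25), and AW554918 (0.26). Egln2 stood at 431 and 487 CPM in HFD 4 and HFD 8 and at no more than 204 CPM elsewhere. Of the 1220 stretches of 50 bases in Gpx4 transcripts, 627 (51.4%) also occur in the pseudogene Gpx4-ps2. Reads that lie wholly within such stretches can have more than 1 place to align, but the read alignments were not examined. The Gpx4 counts, and the place of Gpx4 in the order of levels, are thus uncertain.

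Per kilobase, Gpx6 reached between 0.137 and 1.24 times the level of Gpx4 and exceeded it in 2 libraries. Gpx4 itself never exceeded 0.163 times the level of Gpx3, the value of HFD 8. In the other 14 libraries that ratio was at most 0.0194.

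**Figure D4:**
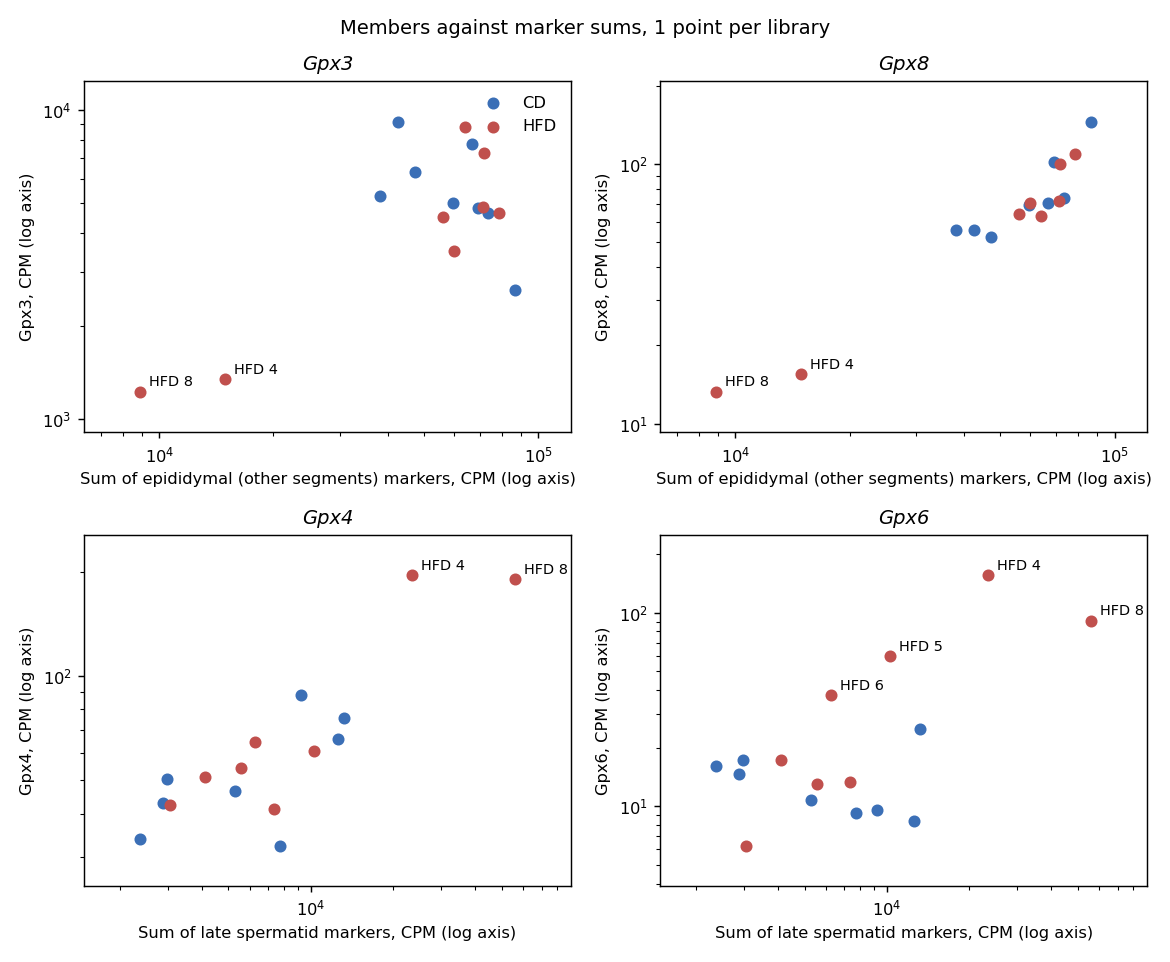
Each point is 1 library, with the summed CPM of a marker list on the horizontal log axis and the CPM of a member on the vertical log axis, for members against epididymal or late spermatid markers. HFD 4 and HFD 8 lie at the low end of the epididymal sums (14930 and 8913 CPM) and the high end of the late spermatid sums (23531 and 55826 CPM).

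Gpx1, the cytosolic peroxidase, was the steadiest member. In HFD it ran from 32.7 CPM in HFD 4 over a median of 69.3 to 114 in HFD 8, and in CD from 43.2 in CD 1 over 65.0 to 97.5 in CD 2. HFD 4 and HFD 8, alike in Gpx3, Gpx4 and Gpx8, were the lowest and the highest library for Gpx1. The means were 71.0 CPM ± 24.4 (SD, n = 8) in HFD and 68.0 ± 17.1 in CD, with a log2 fold change of 0.06 ± 0.23 (SE), edgeR adjusted p = 0.935. Without HFD 4 and HFD 8 the HFD mean was 70.3 CPM ± 13.2 (n = 6) and the log2 fold change was again 0.06. It was -0.07 without HFD 8 alone and 0.19 without HFD 4 alone. The nearest profiles were Cdc42bpg (0.28), Necap2 (0.28) and Dda1 (0.29).

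Gpx2, the gut peroxidase, was close to absent from the counts. It had 16 counts over all libraries, in 2 HFD and 3 CD libraries, with at most 7 in CD 7. The other 11 libraries were at 0, which at their depths allows a level of up to between 0.397 and 1.79 CPM. Its mean was 0.0712 CPM ± 0.141 (SD, n = 8) in HFD and 0.476 ± 0.793 in CD, and a two-sided exact permutation test of log2(CPM + 1) gave a difference of -0.32, p = 0.323. Gpx2 did not pass the low-count filter. The list of 10 intestinal genes summed to 6.1 to 25.2 CPM over the 16 libraries, with Cdx1 and Sis at 0 in each.

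Gpx8, the membrane-bound peroxidase of the endoplasmic reticulum, was low in HFD 4 and HFD 8, as Gpx3 was, but highest in CD 2, the CD library with the least Gpx3. In HFD it ran from 13.2 CPM in HFD 8 over a median of 67.4 to 109 in HFD 2, and in CD from 52.1 in CD 5 over 70.1 to 146 in CD 2. HFD 8 and HFD 4 (15.5 CPM) lay below every other library, at 0.187 and 0.219 times the median of the other 14. The means were 63.4 CPM ± 34.6 (SD, n = 8) in HFD and 78.2 ± 31.5 in CD, with a log2 fold change of -0.30 ± 0.37 (SE), edgeR adjusted p = 0.788. Without that pair the HFD mean was 79.8 CPM ± 19.8 (n = 6). The log2 fold change was then 0.04 ± 0.22 (SE), a turn of sign within the standard error.

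The nearest profiles of Gpx8 were those of Spink8, an epididymal protease inhibitor and one of the markers (0.22), Tspan3 (0.22) and Dnajc10, a disulfide reductase of the endoplasmic reticulum (0.24). Spink8 stood at 2948 CPM in HFD 4 and 1573 in HFD 8, against at least 7687 CPM elsewhere. For Gpx3 the nearest were Hdac6 (0.27), Lrrc8a (0.29) and Smarcd3 (0.29). The epididymal list, 12 of 12 tested, had 9 genes with a lower fitted level in HFD, against 6628 of all 13149 genes. It summed to 8913 to 78611 CPM in HFD and 38271 to 86584 CPM in CD, with an exact permutation p of 0.399. Of its genes, Teddm1 was at 0 in 2 libraries and the other 11 had counts in all 16. Its part in the Gpx8 values was not tested.

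Gpx7, the soluble peroxidase of the endoplasmic reticulum, was the lowest of the tested members. In HFD it ran from 0.384 CPM in HFD 1 (2 counts) over a median of 2.72 to 5.69 in HFD 6 (22 counts). In CD it ran from 0.766 in CD 5 (3 counts) over 3.37 to 5.82 in CD 2 (44 counts). HFD 1 and HFD 7 (0.739 CPM, 2 counts) lay below the level of 3 counts, which was 0.576 and 1.11 CPM there. The low Gpx7 values are thus at the limit of detection. The diets covered nearly the same range. The means were 2.96 CPM ± 2.05 (SD, n = 8) in HFD and 3.21 ± 2.01 in CD, with a log2 fold change of -0.16 ± 0.55 (SE), edgeR adjusted p = 0.930. The sign turned to 0.05 without HFD 1, to 0.03 without CD 2 and to 0.01 without CD 7, and the value was -0.49 without HFD 4 and HFD 8. The nearest profiles, Slc4a4 (0.58), Pik3cb (0.62) and Commd4 (0.62), were less close than those of Gpx1, Gpx3, Gpx4 and Gpx8.

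**Figure D5:**
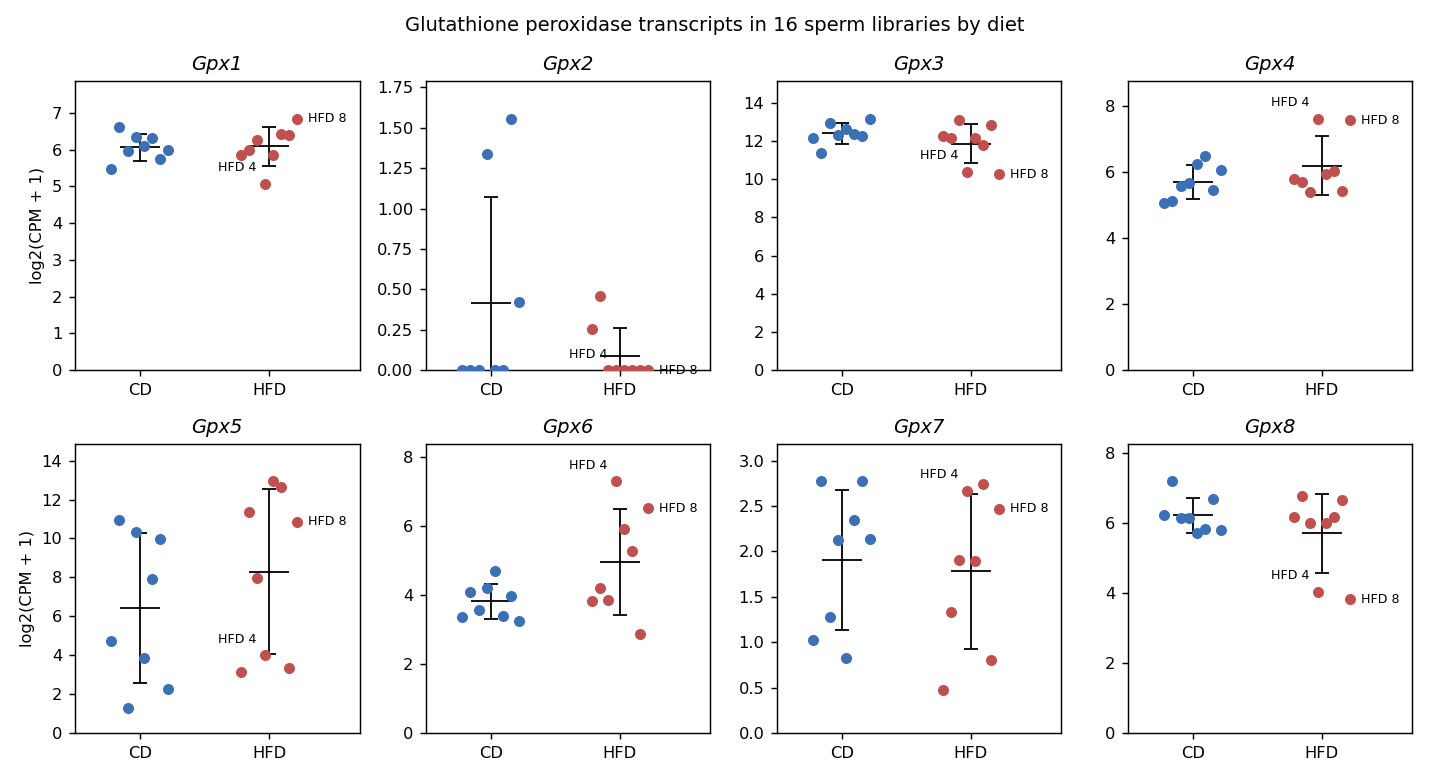
Points give log2(CPM + 1) of each member in the 8 CD and 8 HFD libraries, with lines for the mean and bars for the SD, and HFD 4 and HFD 8 named. That pair is high for Gpx4 and Gpx6 and low for Gpx3 and Gpx8, and Gpx5 spreads over most of its axis in both diets.

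The genes that supply and share the work of the peroxidases were described from 4 lists. As background for each list, 49.6% of all genes tested had a higher fitted level in HFD, and 11.3% an unadjusted edgeR p below 0.05. Of 24 genes of glutathione synthesis and recycling, 21 were tested, 5 with a higher and 16 with a lower fitted level in HFD, with a median log2 fold change of -0.16 against -0.0042 over all genes. None had an edgeR adjusted p below 0.05, and 0 had an unadjusted p below 0.05. The most abundant were Slc7a11, the cystine importer, at 237 CPM ± 147 (SD, n = 8) in HFD and 291 ± 143 in CD, and G6pdx, which makes NADPH, at 208 ± 91.3 and 248 ± 82.5. Both were low in HFD 4 and HFD 8, with 41.1 and 24.4 CPM of Slc7a11 against at least 102 elsewhere. The smallest p of the list were those of Glrx3, a glutaredoxin, with a log2 fold change of 0.71 ± 0.37, and Chac1, which degrades glutathione, with -0.76 ± 0.65. Without HFD 4 and HFD 8 the median of the list was 0.03.

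Selenium handling, which supplies Gpx1 to Gpx4, had 16 of 18 genes tested, 6 higher and 10 lower in fitted level, with a median log2 fold change of -0.20, and 0.01 without HFD 4 and HFD 8. Secisbp2, the protein that binds the selenocysteine insertion element, had 9.68 CPM ± 3.20 (SD, n = 8) in HFD and 15.5 ± 3.16 in CD. Its log2 fold change was -0.67 ± 0.26 (SE) with an edgeR adjusted p of 0.434. Both Secisbp2 and Eefsec, 2 of the 16 tested, had an unadjusted p below 0.05, against 11.3% of all genes, so that count is near the background. Eefsec, the elongation factor for selenocysteine, stood at 11.8 CPM ± 5.64 for HFD and 7.08 ± 2.42 for CD. Its log2 fold change was 0.72 ± 0.34, with an edgeR adjusted p of 0.442. It was 20.8 and 19.5 CPM in HFD 4 and HFD 8 and at most 12.7 elsewhere. The most abundant of the list were Ncl, at 438 CPM ± 147 and 569 ± 112, and Secisbp2l, at 297 ± 140 and 364 ± 46.1.

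The list of other peroxide-removing enzymes also held superoxide dismutases, thioredoxins, thioredoxin reductases and sestrins, so its counts are not those of peroxidases alone. It had 20 of 21 genes tested, 6 higher and 14 lower in fitted level. The median log2 fold change was -0.13, and 0.02 without HFD 4 and HFD 8. The peroxiredoxins Prdx1 and Prdx6 were the most abundant, Prdx1 at 361 CPM ± 141.5 (SD, n = 8) in HFD and 427 ± 101 in CD, and Prdx6 at 333 ± 117 and 369 ± 91.2. The unadjusted edgeR p was below 0.05 for 3 of the 20 tested genes, against 11.3% of all genes, so that count is near the background. All 3 are known from the testis or sperm. Txndc8, a spermatid thioredoxin, had a log2 fold change of 1.93 ± 0.74 with an edgeR adjusted p of 0.434, and stood at 257 and 147 CPM in HFD 4 and HFD 8 against at most 51.9 elsewhere. Txnrd3, the thioredoxin and glutathione reductase of the testis, had 1.41 ± 0.56, adjusted p = 0.434, with 429 and 253 CPM in that pair against at most 78.2. Txndc2, the third, had 1.55 ± 0.65, adjusted p = 0.434.

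Other selenoproteins had 11 of 15 genes tested, 5 higher and 6 lower in fitted level, with a median log2 fold change of -0.07, and -0.05 without HFD 4 and HFD 8. None passed the edgeR threshold and 0 had an unadjusted p below 0.05. The most abundant were Selenot, listed as Selt, at 158 CPM ± 45.3 (SD, n = 8) in HFD and 180 ± 49.6 in CD, and Selenof, listed as Sep15, at 120.0 ± 28.7 and 115.5 ± 37.2. The smallest p were those of Selenoo, listed as Selo, with a log2 fold change of -0.40 ± 0.24, and Selenon, listed as Sepn1, with -0.51 ± 0.32, with adjusted p of 0.552 and 0.573.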

How the data were processed

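The authors deposited a table of counts, whole and not normalised, with a row for each gene symbol and a column for each library. STAR, HTSeq 1.0.0, DESeq2 1.0.19 and mm10 appear in the submitters' processing notes without role or order. Annotation and strand: not given in the sources used here. Per the labels, groups follow the diet given for each library, and the series describes 8 mice per diet. The labels do not tie each library to a mouse, so p-values measure the spread between libraries. The 5 summary rows of the counting were left out of library sizes. They took most of each column: reads assigned to no feature made up 58.0% to 76.05%.

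The diet test was edgeR 4.0.16's (R 4.3.3): quasi-likelihood F-test with robust estimation, TMM factors, expression filter by diet, diet as the sole term, two-sided, Benjamini-Hochberg over 13149 genes at 0.05. Member CPM use library sizes multiplied by TMM factors, and marker sums use library totals. Marker sums and Gpx2 were compared by exact permutation over 12870 assignments, on log2(CPM + 1). Profile distances were taken on log2 CPM (prior count 2). The fit was tested on simulated data with 200 changed genes. No pair of libraries was a copy of another: chi-square per degree of freedom was 10.5 to 253 over 120 pairs. Gene models and coding sequences are from GENCODE M21, matched by symbol with Biopython 1.88 and pandas 2.3.3 in Python 3.11.15. Alternatives were DESeq2 1.42.0, limma-voom (limma 3.58.1), scaling, filters, covariates, a replicate block, and leaving out libraries.

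Named genes are all 8 members, the 3 nearest profiles of each tested member, and in each partner list the 2 most abundant genes and the 2 with the smallest p, and in each marker list the 2 most abundant. Txndc2, Lcn8, Lcn9, Lcn10, Adam28, Spag11b, Cst11, Defb15, Ros1, Omp, Lgr5 and other marker genes outside this rule were named after their values were seen. The members and lists were chosen with earlier results of these data known.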

Additional observations from a re-analysis of the deposited data

How the results depend on the processing

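No member passed the threshold under any of 195 combinations of member and alternative, and 189 kept the direction. Adjusted p ran down to 0.159 for Gpx6 and 0.253 for Gpx5. DESeq2 put 1 gene of the table, no member, past the threshold. Without HFD 4 and HFD 8, the log2 fold change was -0.042 for Gpx4 and 0.044 for Gpx8. The marker sums then turned to 0.19 for epididymal, -0.036 for late spermatid, -0.032 for meiotic, 0.25 for leukocyte, -0.026 for stromal, 0.19 for Sertoli and Leydig and 0.0069 for intestinal genes. As a difference of mean CPM, leukocytes gave 42.8 and erythroid genes 2.42. Leaving out 1 library gave -0.065 to 0.19 for Gpx1, -0.39 to 0.048 for Gpx7, -0.047 to 0.41 for the caput sum, -0.17 to 0.10 for leukocytes, -0.39 to 0.024 for erythroid and -0.28 to 0.078 for Sertoli and Leydig genes. Gpx6 gave 1.31 to 2.00, Gpx5 1.48 to 2.68, Gpx4 0.41 to 0.81, Gpx3 -0.54 to -0.19 and Gpx8 -0.46 to -0.11. The causes were not tested.

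The labels do not say whether the title numbers pair the libraries. Same-numbered deviations correlated at -0.395 to 0.605, 4 of 8 over 0.1, and 2 HFD libraries matched their own number best. Such correlations cannot settle it, because libraries of paired mice need not have similar deviations. With the replicate block, genes with an unadjusted p below 0.05 fell from 1482 to 314, Gpx6 had a log2 fold change of 1.19 and Gpx4 0.48, and no member passed the threshold. That number of genes was 2258 with DESeq2, 500 with limma-voom, 292 without HFD 4 and HFD 8, 516 without HFD 4 and 689 without HFD 8. Counts of 17 to 262 limit Gpx6, counts of 2 to 44 limit Gpx7, and Gpx2 is at the limit of detection.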

Other observations

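The RefSeq model of Gpx6 starts 16660 bases before the GENCODE model used here and leaves 2737 bases between it and Gpx5. Gpx2-ps1, a pseudogene that shares 192 of 1018 stretches of 50 bases with Gpx2, had 4 counts in 2 libraries.

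Meiotic genes, led by Mael and Syce2, which act in the germ line before the spermatid stage, reached a sum of 3572 CPM in HFD 4 and 2954 in HFD 8, and of 215 to 1028 CPM in the other 14 libraries. The leukocyte sum was 3404 CPM ± 1425 (SD, n = 8) under HFD and 3361.5 ± 896.5 under CD. Cd52, also known from the epididymis, made up most of this sum and Lyz2 was next. The leukocyte sum was 1435 CPM in HFD 4 and 1864 in HFD 8, against at least 1997 in the other 14 libraries. Stromal genes, led by Sparc and Dcn, summed to 791 CPM ± 336 and 664 ± 252, and Sertoli and Leydig genes, led by Cyp17a1 and Sox9, to 112 ± 42.5 and 118 ± 28.9. The stromal sum was 1353.5 CPM in HFD 4 and 1184 in HFD 8, against at most 1022 in the other 14 libraries. In the erythroid list the globin genes were listed at 0 in every library, and Alas2 and Slc4a1 were the most abundant. The erythroid sum was 201 CPM in HFD 4, 42.8 in HFD 8 and at most 90.0 in the other 14 libraries. Intestinal genes, led by Cdh17, summed to 13.4 CPM ± 4.63 under HFD and 15.2 ± 6.66 under CD, and olfactory genes, led by Gnal and Adcy3, to 25.5 ± 6.61 and 29.1 ± 6.64. The exact permutation p adjusted over the 10 lists was 0.833 for each. On the scale of library totals used for the sums, Vil1 (1.57 CPM) and Lgr5 (1.55 CPM) followed Cdh17 with nearly equal means.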
